A study of Mus musculus with 9 samples.

Results

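The lysosomal hydrolases and the proton pump that acidifies the lysosome were described by 45 named genes, found by gene symbol among the 22376 symbols listed in the files. They comprised 15 subunits of the vacuolar proton pump, 10 proteases, 8 glycosidases and lipid hydrolases, 4 activators and other luminal proteins, 6 membrane proteins, and the transcription factors Tfeb and Tfe3. The cells were macrophages raised from the marrow of wild-type C57Bl/6 mice in 10 ng/ml macrophage colony-stimulating factor (M-CSF), then freed of it by washing. They were kept for 48 h at 50000 cells to a well. Polyadenylated RNA was sequenced from 3 libraries with PD-L1 antibody (1, 2 and 3), 3 with isotype antibody (4, 5 and 6), both at 100 µg/ml, and 3 untreated (7, 8 and 9). PD-L1 is the surface ligand of the inhibitory receptor PD-1 of T cells. The labels do not say how many animals gave marrow, nor whether the wells of a group came from separate cultures. The p-values therefore reflect no more than the spread among these libraries, which may be technical.

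Lysosomes break down what a macrophage engulfs and what it recycles from itself. Their hydrolases work best in acid, which the vacuolar ATPase (V-ATPase) supplies: its cytosolic V1 sector hydrolyses ATP, and the rotation this drives in the membrane V0 sector carries protons into the lumen. TFEB and TFE3, of the MiT/TFE family of transcription factors, are held in the cytosol by mTORC1 signalling at the lysosomal surface when nutrients are plentiful, and when released they bind E-box elements in promoters of lysosomal genes.

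Levels are given as CPM, exonic read equivalents (average exonic coverage times exon length over the read length) per 1e+06 of the library's total, scaled by TMM, the trimmed mean of log ratios between libraries. Each fold change is a difference of log2(CPM + 1) values from 1 limma fit over 13728 tested genes, with Benjamini-Hochberg adjustment over all of them; a gene is called at an adjusted p under 0.05. All 45 genes passed the filter on low values, and the thinnest value was 1008 exonic read equivalents for Mcoln1 in PD-L1 antibody 2. Totals per library ran from 23554320 (untreated 7) to 40116467 (untreated 9) exonic read equivalents. Of the macrophage markers 10 of 10 were tested, with a summed level of 27440 to 31710 CPM in PD-L1 antibody, 25330 to 28630 CPM in isotype antibody and 22580 to 29440 CPM in untreated libraries. Over the isotype antibody 4 of the 10 rose and none fell, with Adgre1 at 1.28, Itgam at 1.15, Fcgr1 at 1.45 and Cd14 at 1.71, while Lyz2 and Mpeg1, which made up much of the sum, were not called (-0.19 and -0.22). Adgre1, Itgam, Fcgr1 and Cd14 also rose over untreated cells. The part of these markers in the results was not tested. Untreated 7 stood apart from untreated 8 and 9: it was lowest of the 3 for 37 of the 45 lysosomal genes, against 42.7% of all tested genes.

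Over the isotype antibody, 5 of the 45 lysosomal genes rose with the PD-L1 antibody (11.1%, against 18.2% of all tested genes) and 13 fell (28.9%, against 18.2%), while 27 were not called. The median log2 fold change was -0.08, against -0.01 over all tested genes. Over untreated cells, 4 rose (8.89%, against 22% of all tested genes), 15 fell (33.3%, against 20.5%) and 26 were not called, with a median of -0.20 against -0.01. The largest rises were in the cathepsins Ctsc and Ctsz and the largest falls in the pump subunit Atp6v0a1, the factor Tfeb and the hexosaminidase subunit Hexa. Both comparisons use the same PD-L1 antibody libraries, so they are not independent. The same shares of all tested genes are the background for each count by role or by list below. In bulk samples fewer cells of a type and less RNA per cell cannot be told apart.

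The direction of small changes depended on the scaling. Scaled by total count alone, the median of all tested genes over the isotype antibody lay at -0.16, with 1565 genes higher and 4148 lower (2502 and 2500 with TMM), and the lysosomal genes then counted 3 higher and 23 lower. Over untreated cells that scaling gave a median of -0.13, with 1939 genes higher and 4089 lower (3018 and 2812 with TMM), and 2 lysosomal genes higher and 29 lower. Values near 0 then changed sign without being called, such as Atp6v0b over the isotype antibody (0.02 with TMM, -0.16 by total count). Of the 18 calls over the isotype antibody, 13 were made in every alternative run, among them those of Atp6v0a1, Tfeb, Hexa, Ctsc and Ctsz.

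**Figure D1:**
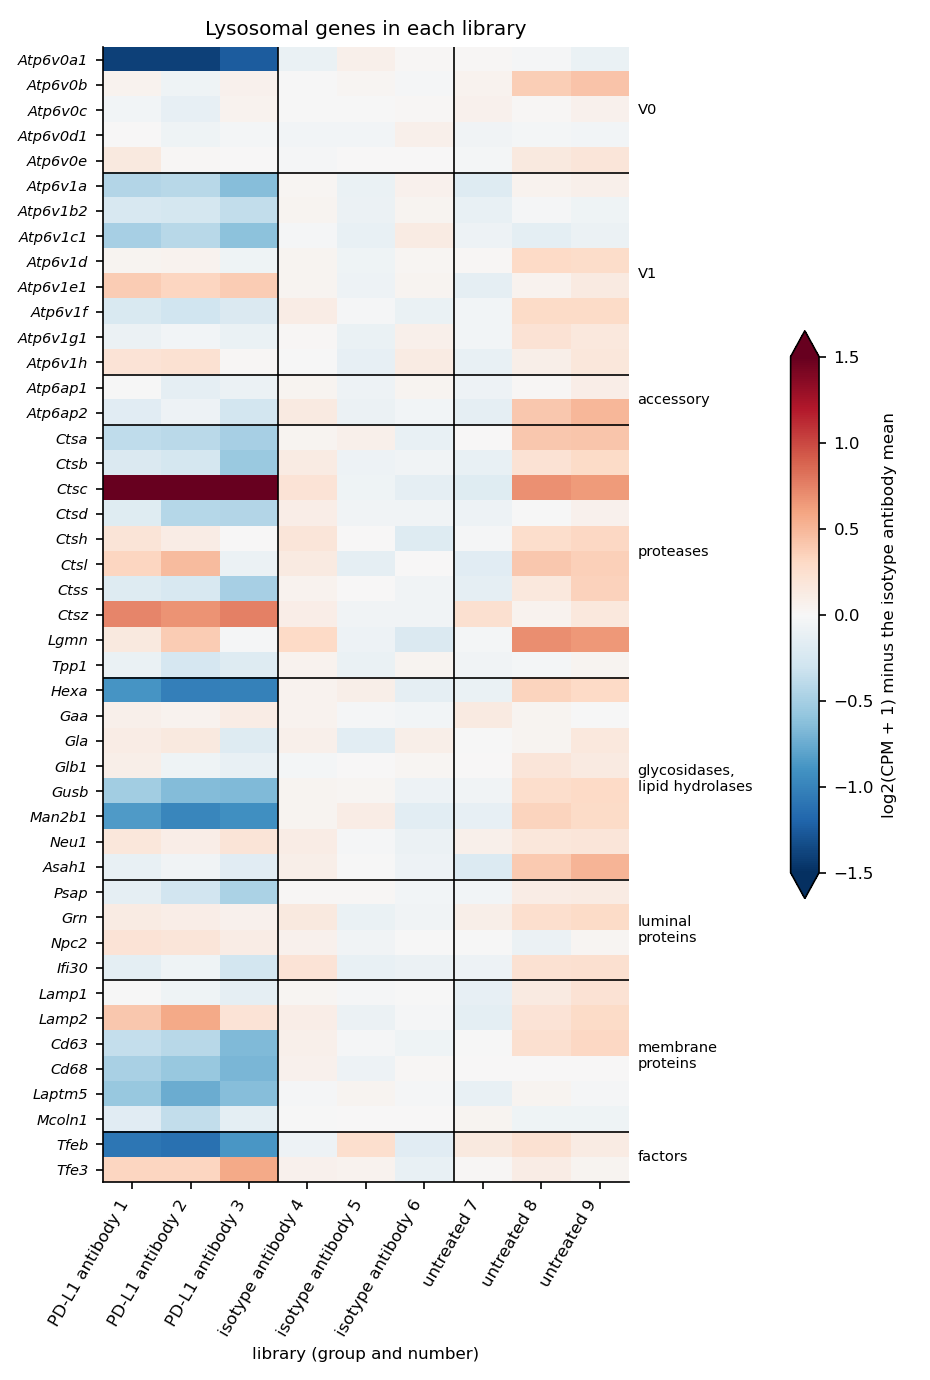
Level of each of the 45 lysosomal genes (rows, grouped by role) in each of the 9 libraries (columns), as log2(CPM + 1) minus the mean of the 3 isotype antibody libraries; red is higher and blue lower, and colours saturate at 1.5. The 3 PD-L1 antibody columns are blue for Atp6v0a1, Tfeb, Hexa and Man2b1 and red for Ctsc and Ctsz, and untreated 8 and 9 are redder than untreated 7 for Ctsc, Lgmn and Asah1.

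The transcription factors that control lysosomal genes moved apart. Tfeb, which encodes the factor best known for driving lysosomal gene expression, measured 63.4, 61.5 and 73.4 CPM with PD-L1 antibody, 128, 161 and 119.6 CPM with isotype antibody and 149, 159 and 148 CPM in untreated cells. All PD-L1 antibody libraries lay below every other library. The log2 fold change of Tfeb was -1.02 ± 0.11 (SE, adjusted p = 3.99e-05) over the isotype antibody and -1.19 ± 0.11 (SE, adjusted p = 1.25e-05) over untreated cells by limma. Tfe3, its close relative, measured 205, 205 and 243 CPM with PD-L1 antibody, 171, 169.7 and 151 CPM with isotype antibody and 165, 177 and 168 CPM in untreated cells. Here the PD-L1 antibody libraries lay above all the others. For Tfe3 limma gave 0.41 ± 0.09 (SE, adjusted p = 0.004) over the isotype antibody and 0.35 ± 0.09 (SE, adjusted p = 0.00808) over untreated cells; scaled by total count, the rise over untreated cells was 0.20 and was no longer called.

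The other MiT/TFE genes, Mitf and Tfec, are no part of the 45 and are given for comparison. Mitf rose by 0.45 ± 0.11 (SE, adjusted p = 0.00628) over the isotype antibody, and Tfec, at 27.9, 22.8 and 33 CPM with PD-L1 antibody, 25.5, 24.9 and 24.7 CPM with isotype antibody and 21.6, 30.1 and 32 CPM in untreated cells, was not called (limma adjusted p = 0.539). Levels of different genes are compared by a length-scaled level, the average coverage per 1e+06 of a library's summed average coverage, with no TMM scaling. Tfeb made up 20.9, 20.1 and 21.3% with PD-L1 antibody, 39.1, 44.7 and 39.7% with isotype antibody and 45.2, 43.2 and 41.4% in untreated cells of the summed length-scaled level of the 4 factors. Tfe3 made up 46.1, 45.6 and 47.9% with PD-L1 antibody, 35.5, 32 and 34.1% with isotype antibody and 34, 32.7 and 32.2% in untreated cells. Tfe3 had the largest share of the 4 in PD-L1 antibody libraries and Tfeb in isotype antibody and untreated ones, a description with no test of its own.

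**Figure D2:**
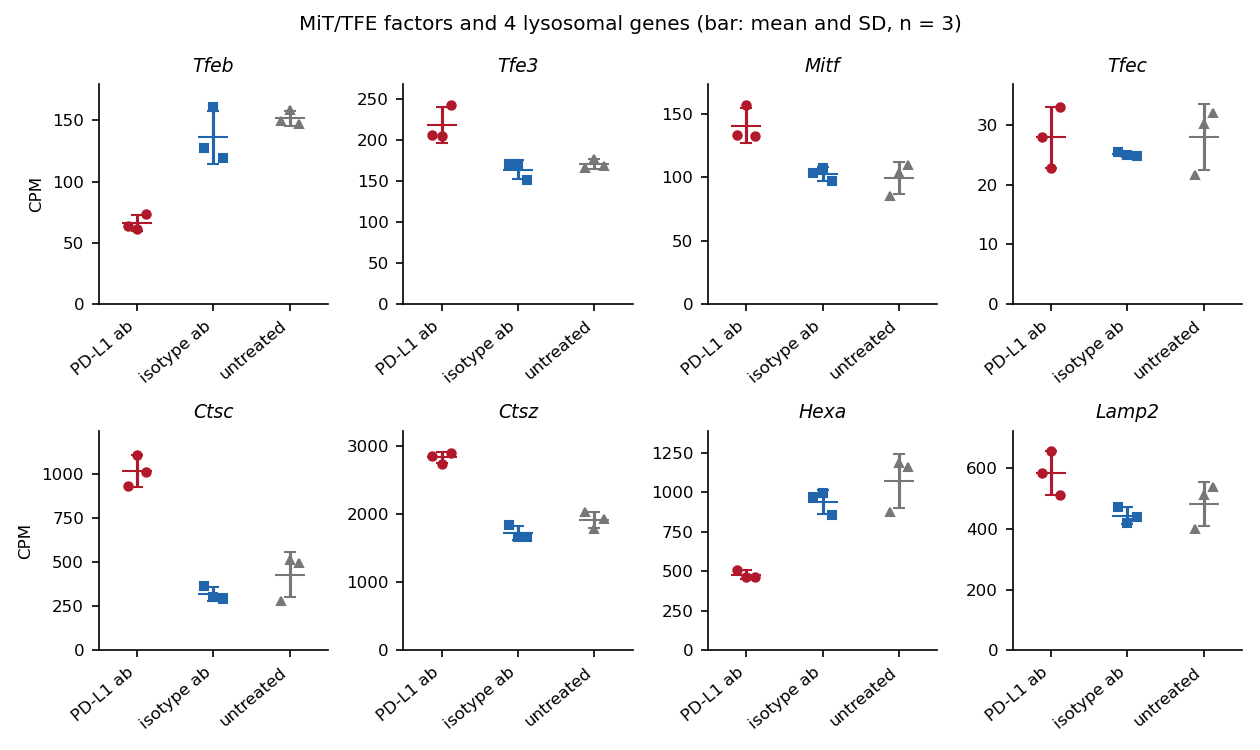
CPM of the MiT/TFE factors Tfeb, Tfe3, Mitf and Tfec (top) and of Ctsc, Ctsz, Hexa and Lamp2 (bottom) in each library; points are libraries, and bars are the mean and SD of 3 (ab, antibody). The PD-L1 antibody points lie below all others for Tfeb and Hexa, and above all others for Tfe3, Mitf, Ctsc and Ctsz; for Lamp2 the lowest PD-L1 antibody library (511 CPM) overlaps the untreated ones.

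Since TFEB and TFE3 bind E-boxes, the 250 bases before each RefSeq start of a gene were searched for CACGTG, and for the longer TCACGTG on both strands, each TCACGTG holding a CACGTG. RefSeq windows (build GRCm38.p6) were given for 38 of the 45 genes, with 46 windows in all; Atp6v1b2, Atp6v1c1, Atp6v1g1, Atp6v1h, Ctsb, Ctsh and Asah1 were not matched. CACGTG was in 12 of these 46 windows (26.1%), against 1978 of 32851 windows of the same length over all genes (6.02%), and TCACGTG in 11 (23.9%), against 1028 (3.13%). By the call over the isotype antibody, CACGTG was in a window of 0 of 5 genes that rose, of 3 of 11 that fell (Atp6v1a, Ctsa and Mcoln1) and of 9 of 22 that were not called. Some genes have several windows: the match of Ctsa is in a window whose start lies 901 bases downstream of the start of the transcript used, and that of Lgmn, not called, in one 722 bases downstream. Atp6v0a1 and Cd63, among the 11 that fell, have no match. Their windows' starts lie 946 bases downstream and 521 bases upstream of the start of the transcript used. Atp6v1b2 and Atp6v1c1 also fell but had no window. These are matches of letters, not measured binding.

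The windows of the 3 largest falls and the 3 largest rises are printed because these genes carry the comparison; none of the 6 holds CACGTG. They run 5′ to 3′ towards the start, for Atp6v0a1 (chr11:101010148-101010397, plus strand), Tfeb (chr17:47736787-47737036, plus strand), Hexa (chr9:59539290-59539539, plus strand), Ctsc (chr7:88277835-88278084, plus strand), Ctsz (chr2:174439040-174439289, minus strand) and Tfe3 (chrX:7762411-7762660, plus strand). The Atp6v0a1 window ends at a RefSeq start 946 bases inside the transcript whose values are given here, so it is not that transcript's own promoter; the other windows end within 1 base of the start of the transcript used.

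Atp6v0a1: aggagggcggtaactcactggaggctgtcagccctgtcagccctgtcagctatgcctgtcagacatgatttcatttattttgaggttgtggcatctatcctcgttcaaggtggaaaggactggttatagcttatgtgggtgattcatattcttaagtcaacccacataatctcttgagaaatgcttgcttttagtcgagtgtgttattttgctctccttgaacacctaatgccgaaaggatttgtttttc

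Tfeb: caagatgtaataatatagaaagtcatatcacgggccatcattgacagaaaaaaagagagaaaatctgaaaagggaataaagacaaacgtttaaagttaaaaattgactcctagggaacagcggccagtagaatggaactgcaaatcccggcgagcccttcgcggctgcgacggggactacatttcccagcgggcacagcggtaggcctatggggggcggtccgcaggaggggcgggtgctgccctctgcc

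Hexa: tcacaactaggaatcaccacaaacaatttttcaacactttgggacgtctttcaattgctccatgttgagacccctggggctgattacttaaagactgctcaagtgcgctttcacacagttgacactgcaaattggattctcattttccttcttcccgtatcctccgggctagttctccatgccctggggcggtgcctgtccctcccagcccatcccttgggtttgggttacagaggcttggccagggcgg

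Ctsc: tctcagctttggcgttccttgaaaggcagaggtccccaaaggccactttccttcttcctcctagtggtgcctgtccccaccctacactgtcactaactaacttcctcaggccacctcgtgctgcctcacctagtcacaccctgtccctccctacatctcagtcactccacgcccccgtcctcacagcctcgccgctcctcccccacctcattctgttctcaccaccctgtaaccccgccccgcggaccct

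Ctsz: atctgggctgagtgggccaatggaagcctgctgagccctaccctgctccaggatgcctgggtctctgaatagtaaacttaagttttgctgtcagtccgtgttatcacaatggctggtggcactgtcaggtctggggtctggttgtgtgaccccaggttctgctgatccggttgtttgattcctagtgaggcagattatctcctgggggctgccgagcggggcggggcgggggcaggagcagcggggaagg

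Tfe3: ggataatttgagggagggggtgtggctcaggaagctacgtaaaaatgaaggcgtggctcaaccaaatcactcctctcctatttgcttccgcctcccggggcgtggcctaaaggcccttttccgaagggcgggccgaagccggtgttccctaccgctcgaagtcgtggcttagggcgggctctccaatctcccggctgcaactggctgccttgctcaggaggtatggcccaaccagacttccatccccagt

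For contrast, 3 windows that hold the element are shown with CACGTG in capitals, chosen after the matches were seen: Atp6v1a (chr16:44139260-44139509, minus strand), Mcoln1 (chr8:3500269-3500518, plus strand) and Lamp1 (chr8:13158911-13159160, plus strand). Counting the base before the RefSeq start at the window's end as -1, CACGTG began at -131 in Atp6v1a, at -71 and -45 in Mcoln1, and at -61, -45, -28 and -15 in Lamp1. The Atp6v1a start lies 239 bases upstream of the start of the transcript whose values are given here; the other starts coincide with theirs. Lamp1, whose window held more CACGTG matches than any other of the 38 genes with a window, was not called in the PD-L1 antibody comparisons, while Atp6v1a and Mcoln1 fell over the isotype antibody.

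Atp6v1a: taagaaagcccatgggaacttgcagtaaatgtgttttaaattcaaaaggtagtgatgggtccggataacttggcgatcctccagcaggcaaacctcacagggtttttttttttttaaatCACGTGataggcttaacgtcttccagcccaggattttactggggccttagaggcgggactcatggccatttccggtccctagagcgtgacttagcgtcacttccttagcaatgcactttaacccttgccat

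Mcoln1: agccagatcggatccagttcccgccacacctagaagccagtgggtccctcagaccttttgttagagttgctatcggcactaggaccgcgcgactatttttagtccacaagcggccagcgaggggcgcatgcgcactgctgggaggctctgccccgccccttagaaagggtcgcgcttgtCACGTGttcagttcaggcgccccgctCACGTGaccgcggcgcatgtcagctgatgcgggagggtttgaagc

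Lamp1: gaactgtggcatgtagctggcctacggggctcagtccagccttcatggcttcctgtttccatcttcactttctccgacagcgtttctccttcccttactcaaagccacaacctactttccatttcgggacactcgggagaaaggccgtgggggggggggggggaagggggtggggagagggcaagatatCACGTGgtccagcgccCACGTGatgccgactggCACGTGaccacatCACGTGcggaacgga

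Of the 5 V0 genes, which form the membrane sector of the pump, 1 fell and 4 were not called over the isotype antibody. Atp6v0a1, isoform a1 of the subunit along which protons pass the membrane, measured 129, 129 and 144 CPM with PD-L1 antibody, 319, 362 and 348 CPM with isotype antibody and 348, 338 and 320.5 CPM in untreated cells. The PD-L1 antibody values lay far below all the others, which overlapped each other. The log2 fold change of Atp6v0a1 was -1.35 ± 0.08 (SE, adjusted p = 4.65e-07) over the isotype antibody and -1.32 ± 0.08 (SE, adjusted p = 6.00e-07) over untreated cells by limma, the largest fall of the 45 genes in each of these comparisons. The proton-carrying ring subunits Atp6v0b and Atp6v0c, the stalk subunit Atp6v0d1 and the small subunit Atp6v0e had fold changes between -0.04 and 0.06 over the isotype antibody, with 95% intervals of -0.20 to 0.23, -0.25 to 0.17, -0.18 to 0.12 and -0.12 to 0.23. Over untreated cells Atp6v0b fell, with a log2 fold change of -0.27 ± 0.10 (SE, adjusted p = 0.0468) by limma. The libraries overlapped, since untreated 7 lay at 231 CPM against 288 and 300.1 CPM in untreated 8 and 9. The call was lost when any library other than untreated 7 was left out, at -0.29 to -0.20.

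Subunits a and d also exist as other isoforms, which are outside the 45 genes. Atp6v0d2, the d isoform known from osteoclasts and macrophages, measured 61.9, 68.3 and 39 CPM with PD-L1 antibody, 235, 213 and 259 CPM with isotype antibody and 186, 260.5 and 253 CPM in untreated cells. Its limma log2 fold change was -2.08 ± 0.19 (SE, adjusted p = 1.14e-05) over the isotype antibody and -2.05 ± 0.19 (SE, adjusted p = 1.21e-05) over untreated cells. Atp6v0a2, isoform a2, rose by 0.58 ± 0.08 (SE, adjusted p = 0.000227) over the isotype antibody, and Tcirg1, isoform a3 (named here after its values were seen), was not called, at 0.01 (limma adjusted p = 0.947, 95% interval -0.25 to 0.28). Set side by side on the length-scaled level, Atp6v0a1 made up 12.6, 12.7 and 13.7% with PD-L1 antibody, 28.7, 30.3 and 26.6% with isotype antibody and 25.1, 30.8 and 26.7% in untreated cells of the summed level of isoforms a1 to a3. Atp6v0d2 made up 23.7, 26.4 and 16.7% with PD-L1 antibody, 54.9, 52.4 and 55.2% with isotype antibody and 49.1, 57.2 and 56.6% in untreated cells of the sum of d1 and d2. Tcirg1 had the highest length-scaled level of the a isoforms in all 9 libraries, and Atp6v0d1 exceeded Atp6v0d2 in all 3 PD-L1 antibody libraries.

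**Figure D3:**
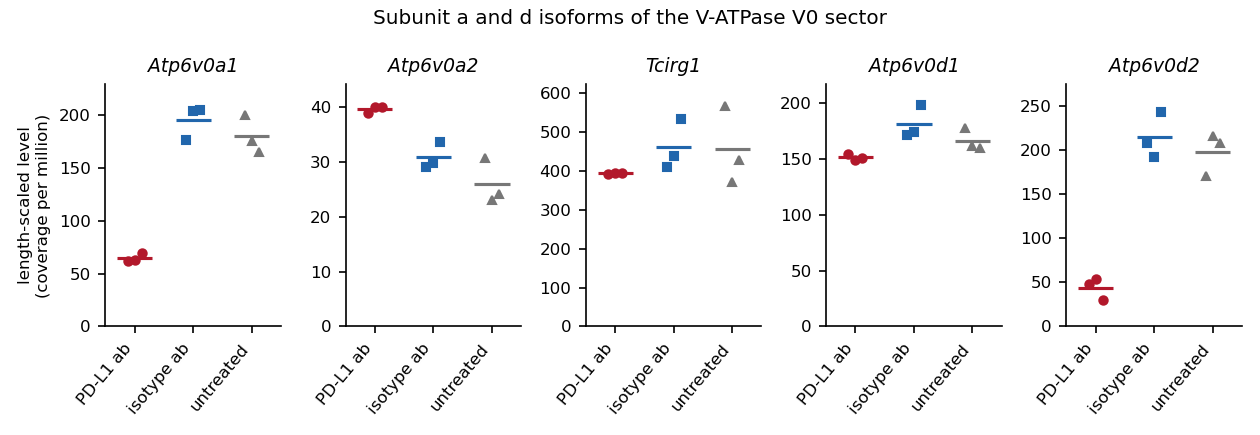
Length-scaled level (average coverage per 1e+06 of the library's summed average coverage, y axis) of the a isoforms Atp6v0a1, Atp6v0a2 and Tcirg1 and the d isoforms Atp6v0d1 and Atp6v0d2 of the V0 sector; points are libraries and bars their mean (ab, antibody). Atp6v0a1 averages 64.9 with PD-L1 antibody, 195 with isotype antibody and 180.3 in untreated cells, and Atp6v0d2 averages 43.9 with PD-L1 antibody, 215 with isotype antibody and 199 in untreated cells. Without TMM scaling, PD-L1 antibody levels stand lower against the other groups here than in CPM. Tcirg1 averages 394.1 with PD-L1 antibody and 460.6 with isotype antibody, though its CPM means are 614.3 and 611.3.

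Of the 8 V1 genes, 1 rose, 3 fell and 4 were not called over the isotype antibody. Atp6v1c1, subunit C, which joins the 2 sectors, measured 124, 132 and 115 CPM with PD-L1 antibody, 174, 163 and 192 CPM with isotype antibody and 167, 158 and 166 CPM in untreated cells. Atp6v1a, the catalytic subunit that hydrolyses ATP, measured 482, 489 and 419.8 CPM with PD-L1 antibody, 669, 611 and 682 CPM with isotype antibody and 571, 676 and 689 CPM in untreated cells. In both, every PD-L1 antibody library lay below every other library. The limma log2 fold change was -0.51 ± 0.08 (SE, adjusted p = 0.000662) over the isotype antibody and -0.41 ± 0.08 (SE, adjusted p = 0.00245) over untreated cells for Atp6v1c1. For Atp6v1a limma gave -0.50 ± 0.10 (SE, adjusted p = 0.00288) over the isotype antibody and -0.47 ± 0.10 (SE, adjusted p = 0.00337) over untreated cells.

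Atp6v1b2, the nucleotide-binding subunit that alternates with the catalytic one, measured 387, 381 and 354 CPM with PD-L1 antibody, 471, 429 and 471 CPM with isotype antibody and 422, 451 and 437 CPM in untreated cells. The PD-L1 antibody libraries lay below all others by a small gap, while the isotype antibody and untreated libraries overlapped, and limma gave -0.29 ± 0.08 (SE, adjusted p = 0.0142) over the isotype antibody and -0.22 ± 0.08 (SE, adjusted p = 0.039) over untreated cells; without PD-L1 antibody 3 or isotype antibody 4 the call over the isotype antibody was lost, at -0.25 and -0.27. The call over untreated cells was lost without any 1 of the PD-L1 antibody libraries, isotype antibody 4, untreated 8 or untreated 9, at -0.25 to -0.19. Atp6v1e1, a subunit of the stalk that holds the catalytic head still, went the other way and measured 135, 129.6 and 134 CPM with PD-L1 antibody, 106, 98.1 and 106 CPM with isotype antibody and 93.5, 107 and 114 CPM in untreated cells. All PD-L1 antibody libraries lay above the others, and limma gave 0.36 ± 0.08 (SE, adjusted p = 0.00563) over the isotype antibody and 0.34 ± 0.08 (SE, adjusted p = 0.00652) over untreated cells; scaled by total count these were 0.18 and 0.19 and were not called.

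The remaining V1 genes were the rotor subunits Atp6v1d and Atp6v1f, the stalk subunit Atp6v1g1 and the regulatory subunit Atp6v1h. Over the isotype antibody they had log2 fold changes of 0.01, -0.25, -0.07 and 0.15, none called. Atp6v1f fell over untreated cells, with -0.43 ± 0.10 (SE, adjusted p = 0.00496) by limma. Of the accessory subunits, Atp6ap1 was not called in either comparison, with -0.08 over the isotype antibody and -0.09 over untreated cells. Atp6ap2, also known as the prorenin receptor, was -0.18 over the isotype antibody (limma adjusted p = 0.377). Over untreated cells Atp6ap2 fell, with -0.44 ± 0.14 (SE, adjusted p = 0.0306) by limma and overlapping libraries; the call was lost when any PD-L1 antibody library, untreated 8 or untreated 9 was left out, at -0.48 to -0.32. Whether Atp6v0b, Atp6v1f and Atp6ap2 differ between the comparisons was not tested. Across the pump, 1 of 15 genes rose (6.67%) and 4 fell (26.7%) over the isotype antibody, against 18.2% of all tested genes in each direction. Over untreated cells 1 rose (6.67%, against 22% of all tested genes) and 7 fell (46.7%, against 20.5%). The 7 falls became 4 when any 1 of PD-L1 antibody 1, 2 or 3 or untreated 8 or 9 was left out. They became 9 without untreated 7, where 23.8% of all genes tested in that fit fell. Upper-quartile scaling also gave 9 and total-count scaling 11. Total-count scaling also called more of all tested genes lower than TMM did, as given above. For upper-quartile scaling and the runs that gave 4, the share of all genes is not given here. These moves are therefore not read as particular to the pump.

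A wider list of 18 pump subunits and assembly factors outside the 45 had 13 tested genes. Of these, 3 rose and 4 fell over the isotype antibody, against 18.2% of all tested genes in each direction. Over untreated cells 3 rose and 4 fell as well, against 22% and 20.5% of all tested genes. Besides Atp6v0d2 and Atp6v0a2, those with the lowest p were Dmxl2, a rabconnectin that helps V1 assemble on V0, and Rogdi, a partner of the rabconnectins. Dmxl2 measured 151, 152 and 170.3 CPM with PD-L1 antibody, 54.4, 63.5 and 70.4 CPM with isotype antibody and 59.2, 39.8 and 41.2 CPM in untreated cells, higher in every PD-L1 antibody library, with a log2 fold change of 1.32 ± 0.14 (SE, adjusted p = 4.12e-05) by limma over the isotype antibody. Rogdi measured 24.7, 24.5 and 27.1 CPM with PD-L1 antibody, 48.6, 47 and 37 CPM with isotype antibody and 51.1, 35.8 and 35.8 CPM in untreated cells, lower in every PD-L1 antibody library. For Rogdi limma gave -0.77 ± 0.14 (SE, adjusted p = 0.00179) over the isotype antibody. The median of the 13 was 0.01.

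The 10 proteases held the largest rises and most of the RNA. Over the isotype antibody 2 rose, 1 fell and 7 were not called, and the same counts held over untreated cells. Ctsc, a dipeptidyl peptidase that activates serine proteases of granules, measured 932, 1113 and 1014 CPM with PD-L1 antibody, 367, 303 and 289 CPM with isotype antibody and 281, 512 and 496 CPM in untreated cells. Every PD-L1 antibody library held more than the highest other library, and untreated 8 and 9 lay above untreated 7 and all isotype antibody libraries. The limma log2 fold change of Ctsc was 1.67 ± 0.20 (SE, adjusted p = 7.07e-05) over the isotype antibody and 1.29 ± 0.20 (SE, adjusted p = 0.000401) over untreated cells. Its transcript used here is long, and in 1 library only 61.5% of its exonic bases were covered; the shorter transcript gave 1.55 over the isotype antibody.

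Ctsz, a carboxypeptidase also called cathepsin X, measured 2861, 2742 and 2904 CPM with PD-L1 antibody, 1848, 1664 and 1658 CPM with isotype antibody and 2028, 1787 and 1925 CPM in untreated cells. All PD-L1 antibody libraries exceeded the others, and limma gave 0.72 ± 0.11 (SE, adjusted p = 0.000359) over the isotype antibody and 0.57 ± 0.11 (SE, adjusted p = 0.00147) over untreated cells. Ctsa, a carboxypeptidase that also shields lysosomal galactosidase and sialidase from breakdown, measured 1142, 1119 and 1048 CPM with PD-L1 antibody, 1520, 1563 and 1370 CPM with isotype antibody and 1482, 1963 and 1970 CPM in untreated cells. All PD-L1 antibody libraries lay below the others, and limma gave -0.43 ± 0.13 (SE, adjusted p = 0.0211) over the isotype antibody and -0.70 ± 0.13 (SE, adjusted p = 0.00115) over untreated cells; the call over the isotype antibody was lost without a filter on low values and without PD-L1 antibody 2 or 3 or isotype antibody 4 or 5, at -0.45 to -0.39.

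The most abundant proteases, Ctsb, Ctsd and Ctss, were not called by limma. Ctsd, the main aspartic protease of lysosomes, had the highest length-scaled level of the 45 genes, at 8098 ± 780 in PD-L1 antibody, 12050 ± 518 in isotype antibody and 11300 ± 318 in untreated libraries (SD, n = 3), which ranked 9 among all tested genes with PD-L1 antibody, 4 with isotype antibody and 5 in untreated cells. In CPM, Ctsd measured 9088, 7701 and 7613 CPM with PD-L1 antibody, 11060, 9971 and 9972 CPM with isotype antibody and 9759, 10280 and 10820 CPM in untreated cells. The PD-L1 antibody values were all below the others, yet the log2 fold change of -0.35 ± 0.17 (SE, adjusted p = 0.126) missed the threshold in limma, while edgeR, DESeq2 and limma-voom called it lower. Ctsb, a cysteine protease, was -0.35 over the isotype antibody (limma adjusted p = 0.191) and Ctss, which trims the invariant chain of MHC class II, was -0.31 (limma adjusted p = 0.166). Over this antibody DESeq2 called Ctsb lower (-0.33). Over untreated cells limma gave -0.48 ± 0.19 (SE, adjusted p = 0.0664) for Ctsb and -0.43 ± 0.16 (SE, adjusted p = 0.0535) for Ctss, neither called, while edgeR, DESeq2 and limma-voom called both lower. Ctsh, Ctsl, the asparaginyl endopeptidase Lgmn and the tripeptidyl peptidase Tpp1 ranged from -0.18 to 0.23 over the isotype antibody and none was called.

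Among 12 cystatins and stefins, the inhibitors of cysteine cathepsins, 7 were tested. Over the isotype antibody 2 rose and 2 fell, against 18.2% of all tested genes in each direction. Over untreated cells 2 rose and 1 fell, against 22% and 20.5% of all tested genes. Cst7, cystatin F, an inhibitor that acts inside the endolysosome and on Ctsc, measured 26.5, 26.8 and 17.6 CPM with PD-L1 antibody, 6.41, 5.08 and 3.28 CPM with isotype antibody and 4.51, 3.94 and 3.79 CPM in untreated cells. It was higher in every PD-L1 antibody library, with a log2 fold change of 2.07 ± 0.21 (SE, adjusted p = 2.13e-05) by limma over the isotype antibody. Cstb, stefin B, had a log2 fold change of 0.38 ± 0.09 (SE, adjusted p = 0.00586) by limma. Cst3, the secreted cystatin C, had -0.42 ± 0.10 (SE, adjusted p = 0.00795) by limma. Stfa2l1 also fell (-0.64), but its values were under 3 CPM in every library.

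None of the 8 glycosidases and lipid hydrolases rose over the isotype antibody, 3 fell and 5 were not called. Hexa, the alpha subunit of beta-hexosaminidase, which degrades GM2 ganglioside, measured 509, 462 and 464 CPM with PD-L1 antibody, 971, 994 and 853 CPM with isotype antibody and 872, 1185 and 1157 CPM in untreated cells. Man2b1, the lysosomal alpha-mannosidase, measured 395, 364 and 377 CPM with PD-L1 antibody, 736, 775 and 640 CPM with isotype antibody and 656, 902 and 875 CPM in untreated cells. For each, the highest PD-L1 antibody library lay well under the lowest other library. The limma log2 fold change of Hexa was -0.97 ± 0.12 (SE, adjusted p = 0.000125) over the isotype antibody and -1.15 ± 0.12 (SE, adjusted p = 3.39e-05) over untreated cells. For Man2b1 limma gave -0.92 ± 0.13 (SE, adjusted p = 0.000199) over the isotype antibody and -1.09 ± 0.13 (SE, adjusted p = 5.48e-05) over untreated cells.

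Gusb, beta-glucuronidase, measured 363, 332 and 330.1 CPM with PD-L1 antibody, 536, 533 and 496 CPM with isotype antibody and 502, 629 and 639.5 CPM in untreated cells. Again the PD-L1 antibody libraries lay below all others, which overlapped each other, and limma gave -0.61 ± 0.10 (SE, adjusted p = 0.000815) over the isotype antibody and -0.78 ± 0.10 (SE, adjusted p = 0.000136) over untreated cells. The uncalled enzymes were Gaa (acid alpha-glucosidase, which degrades glycogen), Gla (alpha-galactosidase A), Glb1 (beta-galactosidase), Neu1 (sialidase) and Asah1 (acid ceramidase). Over the isotype antibody their log2 fold changes were 0.08, 0.02, -0.03, 0.15 and -0.11, with 95% intervals within -0.45 to 0.32.

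Of 38 further lysosomal hydrolases, all tested, 6 rose and 15 fell over the isotype antibody, against 18.2% of all tested genes in each direction. Their median was -0.20, against -0.01 for all tested genes. Over untreated cells 5 rose and 17 fell, against 22% and 20.5% of all tested genes. The 4 with the lowest p went both ways. Lipa, the acid lipase that frees cholesterol from its esters, measured 416, 395 and 299 CPM with PD-L1 antibody, 1119, 1216 and 1355 CPM with isotype antibody and 1089, 992 and 1020 CPM in untreated cells. Its log2 fold change over the isotype antibody was -1.74 ± 0.13 (SE, adjusted p = 2.30e-06) by limma. Dpp7, a dipeptidyl peptidase, was -0.85 ± 0.08 (SE, adjusted p = 1.34e-05) in the same limma fit. Acp5, tartrate-resistant acid phosphatase, measured 62, 63.6 and 66.5 CPM with PD-L1 antibody, 23.6, 20.4 and 17 CPM with isotype antibody and 21, 18.8 and 22.8 CPM in untreated cells. For Acp5 limma gave 1.62 ± 0.12 (SE, adjusted p = 2.00e-06) over the isotype antibody. Acp2, the lysosomal acid phosphatase, rose by 1.07 ± 0.11 (SE, adjusted p = 2.52e-05) in limma. Across these 4, no PD-L1 antibody library overlapped any other library.

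By limma with TMM scaling, no gene of the 4 activators and other luminal proteins was called in either PD-L1 antibody comparison. They are Psap, the precursor of saposins, which lift lipids to their hydrolases; Grn, progranulin; Npc2, which binds cholesterol in the lumen; and Ifi30, a thiol reductase for antigen processing. Psap measured 8905, 8028 and 7056 CPM with PD-L1 antibody, 9893, 9946 and 9550 CPM with isotype antibody and 9493, 10540 and 10660 CPM in untreated cells. Its PD-L1 antibody values lay below the rest, yet limma gave -0.30 ± 0.17 (SE, adjusted p = 0.188) over the isotype antibody, which DESeq2, limma-voom and edgeR on the deposited read counts called lower. Over untreated cells limma gave -0.36 for Psap (adjusted p = 0.103), while edgeR, DESeq2 and limma-voom called it lower. Grn, Npc2 and Ifi30 were 0.09, 0.17 and -0.16 over the isotype antibody, with limma adjusted p of 0.596, 0.247 and 0.292. DESeq2 called Npc2 higher over the isotype antibody (0.17) and over untreated cells (0.19). It called Ifi30 lower over untreated cells (-0.30), as limma did with upper-quartile or total-count scaling.

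Of the 6 membrane proteins, 1 rose, 4 fell and 1 was not called over the isotype antibody. Laptm5, a membrane protein of blood cell lysosomes, measured 1882, 1667 and 1794 CPM with PD-L1 antibody, 2767, 2874 and 2759 CPM with isotype antibody and 2591, 2891 and 2771 CPM in untreated cells. Cd68, macrosialin, a marker of macrophages, measured 828, 786 and 725 CPM with PD-L1 antibody, 1212, 1106 and 1172 CPM with isotype antibody and 1164, 1169 and 1170 CPM in untreated cells. Cd63, a tetraspanin of late endosomes, measured 285, 274 and 232 CPM with PD-L1 antibody, 387, 363 and 350.3 CPM with isotype antibody and 366, 434 and 455 CPM in untreated cells. All 3 were lower in every PD-L1 antibody library than in any other. Over the isotype antibody limma gave -0.65 ± 0.11 (SE, adjusted p = 0.000751) for Laptm5, -0.58 ± 0.09 (SE, adjusted p = 0.000481) for Cd68 and -0.48 ± 0.11 (SE, adjusted p = 0.00463) for Cd63. Over untreated cells the limma log2 fold changes were -0.63, -0.58 and -0.66, with adjusted p of 0.000864, 0.000397 and 0.000519.

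Lamp2, the structural membrane glycoprotein whose isoform A serves chaperone-mediated autophagy, measured 585, 656 and 511 CPM with PD-L1 antibody, 473, 418 and 439 CPM with isotype antibody and 401, 511 and 538 CPM in untreated cells. The PD-L1 antibody libraries lay above the isotype antibody libraries and overlapped the untreated ones. Limma gave 0.39 ± 0.13 (SE, adjusted p = 0.0312) over the isotype antibody and 0.28 ± 0.13 (SE, adjusted p = 0.1) over untreated cells, the second not called. The first call was lost under 2 other scalings, with no filter, with edgeR on the deposited read counts, and without PD-L1 antibody 1 or 2 or isotype antibody 5 or 6, at 0.21 to 0.39. Its partner Lamp1 was -0.07 (limma adjusted p = 0.674, 95% interval -0.31 to 0.18). Mcoln1, the calcium channel TRPML1, measured 51.4, 44.9 and 52.6 CPM with PD-L1 antibody, 57.9, 58.3 and 58.4 CPM with isotype antibody and 59.8, 55.7 and 55.6 CPM in untreated cells, with the PD-L1 antibody libraries lowest. Limma gave -0.23 ± 0.08 (SE, adjusted p = 0.0436) over the isotype antibody, and the call did not hold without PD-L1 antibody 1 or 2, isotype antibody 4, 5 or 6 or untreated 8 or 9, at -0.26 to -0.16.

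**Figure D4:**
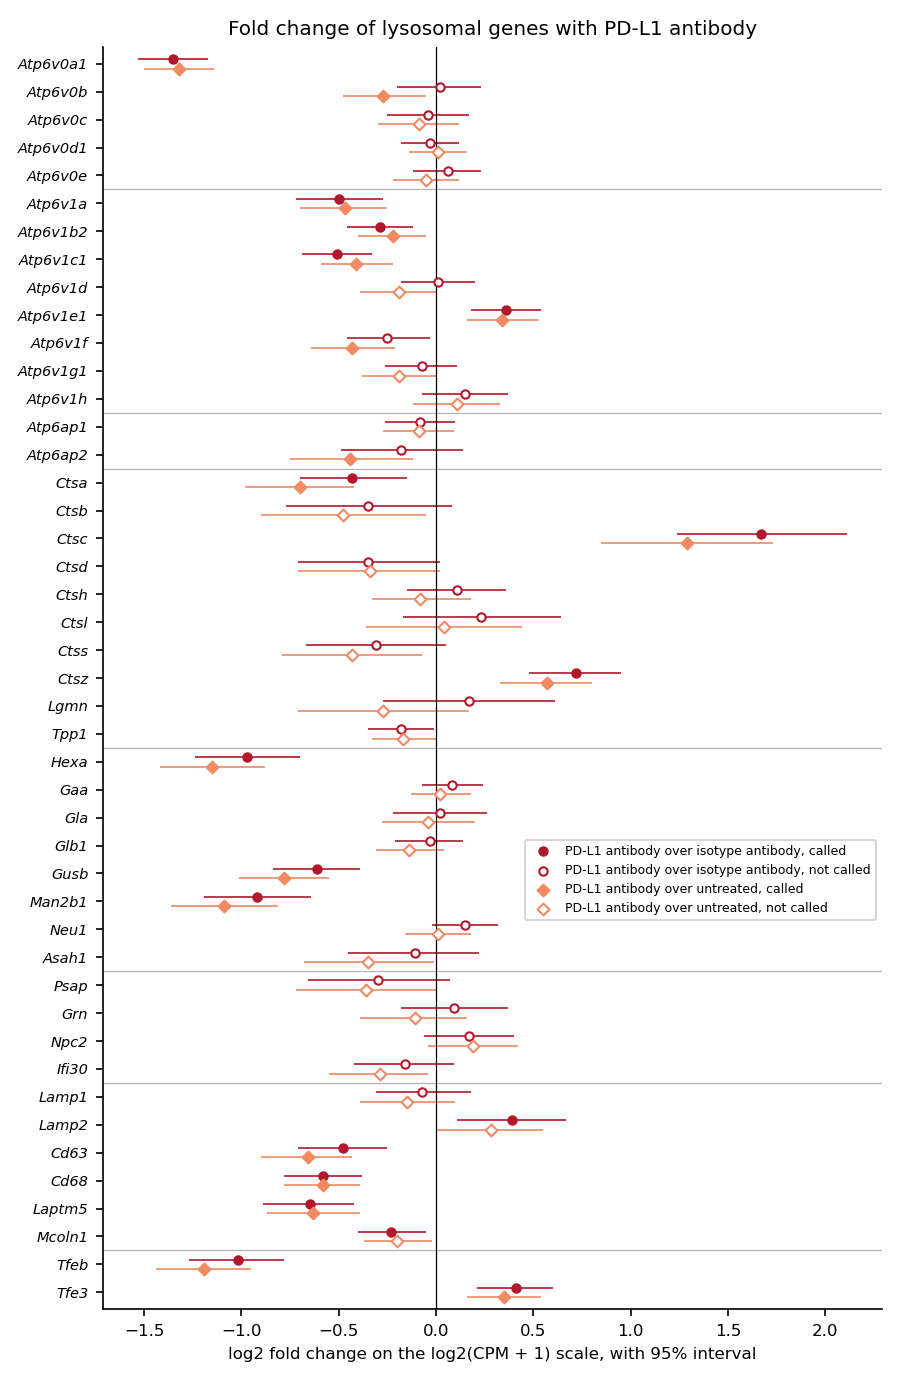
Log2 fold change (x axis, log2(CPM + 1) scale) with its 95% interval for each of the 45 genes, grouped by role, over the isotype antibody (circles) and over untreated cells (diamonds); filled symbols passed an adjusted p of 0.05 in limma. The extremes are Atp6v0a1 at -1.35 and Ctsc at 1.67 over the isotype antibody, and the 2 comparisons share the PD-L1 antibody libraries.

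Among 29 other lysosomal membrane and transporter proteins, 7 rose and 13 fell over the isotype antibody, with a median of -0.22. In that comparison 18.2% of all tested genes were called in each direction. Over untreated cells 5 rose and 11 fell, against 22% and 20.5% of all tested genes. Tpcn1, an endolysosomal cation channel, measured 68.7, 62 and 72.5 CPM with PD-L1 antibody, 177, 212 and 179 CPM with isotype antibody and 177, 224 and 193 CPM in untreated cells and was lower in every PD-L1 antibody library. For Tpcn1 limma gave -1.47 ± 0.11 (SE, adjusted p = 2.19e-06) over the isotype antibody. The peptide and histidine transporter Slc15a3 rose over the isotype antibody, with 1.40 ± 0.11 (SE, adjusted p = 3.22e-06) by limma. Slc11a1, a metal ion transporter, also rose, with 1.48 ± 0.12 (SE, adjusted p = 3.44e-06) by limma.

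Hydrolases reach the lysosome through mannose-6-phosphate tags and sorting receptors. Of 15 genes of this route, 4 rose and 2 fell over the isotype antibody, against 18.2% of all tested genes in each direction. Over untreated cells 5 rose and 2 fell, against 22% and 20.5% of all tested genes. Sort1, sortilin, a receptor for prosaposin and other cargo, measured 27.9, 25.4 and 32.6 CPM with PD-L1 antibody, 82.5, 104 and 78.3 CPM with isotype antibody and 73.8, 85.6 and 72.3 CPM in untreated cells. For Sort1 limma gave -1.59 ± 0.13 (SE, adjusted p = 3.61e-06) over the isotype antibody. M6pr, the cation-dependent mannose-6-phosphate receptor, measured 672, 629 and 632 CPM with PD-L1 antibody, 371, 360.3 and 367 CPM with isotype antibody and 361, 345 and 353 CPM in untreated cells. For M6pr limma gave 0.81 ± 0.07 (SE, adjusted p = 8.52e-06) over the isotype antibody. These receptors moved in opposite directions, without overlap between PD-L1 antibody libraries and the rest.

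Of 19 genes of the MiT/TFE family and its control at the lysosome, 1 rose (Mitf), 5 fell and 13 were not called over the isotype antibody. In that comparison 18.2% of all tested genes were called in each direction. Over untreated cells 2 rose and 6 fell, against 22% and 20.5% of all tested genes. Rragd, a Rag GTPase of amino acid sensing, measured 13, 9.81 and 10.5 CPM with PD-L1 antibody, 33, 29.9 and 37.5 CPM with isotype antibody and 32.6, 29.6 and 29.2 CPM in untreated cells. For Rragd limma gave -1.51 ± 0.12 (SE, adjusted p = 3.78e-06) over the isotype antibody. Flcn, folliculin, the GTPase-activating protein that acts on RagC and RagD, measured 98.6, 97.5 and 112 CPM with PD-L1 antibody, 172, 167 and 166 CPM with isotype antibody and 159.6, 173 and 183 CPM in untreated cells. For Flcn limma gave -0.71 ± 0.08 (SE, adjusted p = 4.84e-05) over the isotype antibody. Rraga, another Rag GTPase, was also lower, with -0.39 ± 0.08 (SE, adjusted p = 0.00245) by limma. Each of these 3 was lower in all PD-L1 antibody libraries than in any other library.

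As a share of all exonic read equivalents, with no TMM scaling, the 45 genes together took 5.58, 5.32 and 4.78% in the PD-L1 antibody libraries, 7.05, 6.62 and 6.66% in the isotype antibody libraries and 6.58, 7.28 and 7.49% in the untreated libraries. The PD-L1 antibody shares were below all the others. The proteases made up most of it, with 3.08, 2.95 and 2.56% in PD-L1 antibody, 3.88, 3.52 and 3.55% in isotype antibody and 3.49, 3.99 and 4.18% in untreated libraries. The glycosidases and lipid hydrolases took 0.205, 0.195 and 0.187% in PD-L1 antibody, 0.331, 0.332 and 0.307% in isotype antibody and 0.311, 0.381 and 0.379% in untreated libraries. With TMM scaling the gaps were narrower. The 45 genes then summed to 60028, 57064 and 51997 CPM with PD-L1 antibody, against 61930 CPM in untreated 7. The protease sums overlapped, at 33105 CPM in PD-L1 antibody 1 and 32861 CPM in untreated 7. Those of glycosidases and lipid hydrolases did not, with at most 2206 CPM with PD-L1 antibody and at least 2888 CPM elsewhere. By length-scaled level, 12 of the 45 genes were among the top 100 tested genes in the PD-L1 antibody group, 13 in the isotype antibody group and 15 in the untreated group.

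Between the isotype antibody and untreated cells none of the 45 genes was called by limma, against 0.00728% of all tested genes called higher and 0% called lower; 2 of the 45 had an unadjusted p under 0.05 (Atp6v0b and Atp6v1d), as did 1745 of all tested genes. DESeq2, edgeR and limma-voom called none of the 45 either. The count turned on untreated 7: without it, limma called 11 of the 45 lower with the isotype antibody and 2297 genes in all. The 2297 are of 13983 genes tested in that fit and hold both directions together. They are therefore no like background for the 11 falls. The share of all genes called lower in that fit is not given here, so the 11 are not read as particular to the lysosomal genes. Those 11 were Lgmn at -0.67, Ctsc at -0.66, Atp6ap2 and Asah1 at -0.45, Ctsa at -0.41, Atp6v0b at -0.40, Hexa at -0.32, Man2b1 at -0.31, Atp6v1d at -0.29, and Atp6v1f and Gusb at -0.28. Without that library the PD-L1 antibody comparison with untreated cells counted 22 falls (48.9%, against 23.8% of all genes tested in that fit), and with all libraries 15 (33.3%, against 20.5%). Of the called genes, 16 were called in the same direction over both the isotype antibody and untreated cells, 4 higher and 12 lower. Lamp2 and Mcoln1 were called over the isotype antibody and not over untreated cells. Since the 2 comparisons share the PD-L1 antibody libraries, part of this agreement is built in. The matching count over all tested genes was not made.

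Markers of other cells were measured beside these results, and their part in them was not tested. Summed osteoclast markers, 8 of 10 tested, came to 262 to 296.6 CPM in PD-L1 antibody libraries. They came to 453.7 to 495.1 CPM in isotype antibody and 435.6 to 485.5 CPM in untreated libraries. Over the isotype antibody 1 rose (Acp5) and 4 fell. Most of the gap in the sum lies in the pump isoform Atp6v0d2, given above. It averaged 56.4 CPM with PD-L1 antibody, 235.5 CPM with isotype antibody and 233 CPM in untreated cells. Acp5 averaged 64.0, 20.3 and 20.9 CPM in the same order. Summed neutrophil markers, 13 of 14 tested, came to 487.4 to 686.3 CPM in PD-L1 antibody, 842.8 to 1551 CPM in isotype antibody and 652.5 to 871.7 CPM in untreated libraries, and 6 fell over the isotype antibody. Dendritic cell markers, 10 of 10 tested, summed to 432.7 to 492.9 CPM in PD-L1 antibody, 373.9 to 589.1 CPM in isotype antibody and 316.8 to 572.8 CPM in untreated libraries, with 1 higher and 6 lower over the isotype antibody. Markers of T, B and NK cells, 5 of 10 tested, summed to 3.30 to 6.24 CPM in PD-L1 antibody, 5.41 to 14.1 CPM in isotype antibody and 11.7 to 24.5 CPM in untreated libraries, and 1 (Cd4) fell over the isotype antibody. Mast cell and basophil markers, 5 of 6 tested and none called, summed to 18.4 to 25.1 CPM in PD-L1 antibody, 16.3 to 35.2 CPM in isotype antibody and 22.5 to 25.9 CPM in untreated libraries, with Tpsb2 at 0 in at least 6 libraries. Stromal markers, 6 of 7 tested, summed to 33.3 to 52.4 CPM in PD-L1 antibody, 23.6 to 37.2 CPM in isotype antibody and 32.0 to 60.7 CPM in untreated libraries, and 3 rose over the isotype antibody. The file names place PD-L1 antibody 2 in sequencing lane 4 and the other 8 libraries in lane 1. Without it, 15 of the 18 calls over the isotype antibody were kept.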

How the data were processed

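Each deposited table covers 1 library and lists RefSeq transcripts. Per the file headers it gives a read count over the transcript's genomic span, the average coverage of its exonic bases, its exon length and the percent of exonic bases covered. The submitters' processing notes name Partek and STAR, with no versions; the genome build and any use of strand are not given in the sources used here, so reads of overlapping antisense genes cannot be told apart. The deposited read count includes introns and is repeated over transcripts of 1 span, so exonic read equivalents were computed as average coverage times exon length over the read length of 150 bases. For each symbol, of 35131 transcripts, the one with the highest total over all libraries was used.

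Genes were filtered with filterByExpr of edgeR 4.0.16, scaled by TMM and tested as log2(CPM + 1) with limma 3.58.1 (R 4.3.3) over all 9 libraries with groups as the design and Benjamini-Hochberg adjustment. A count test was kept as an alternative because of what the count column holds: edgeR's quasi-likelihood test on the deposited read counts and DESeq2 1.42.0 on rounded exonic read equivalents were run.

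Members and lists were chosen with earlier results of these data known. Values in every library were given for Tfeb and Tfe3. Within each role they were also given for up to 4 called genes with the largest change over the isotype antibody. From each wider list the 2 to 4 tested genes with the lowest p were named, some with their fold change alone. Other genes named were chosen after their values were seen. No 2 libraries of a group agreed within counting noise (chi-square per degree of freedom of 24.95 to 100.81). Intervals cover the spread between libraries.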

Additional observations from a re-analysis of the deposited data

How the results depend on the processing

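Scaling by total count alone gave 3 lysosomal genes higher and 23 lower over the isotype antibody, and 2 higher and 29 lower over untreated cells; upper-quartile scaling gave 24 lower over untreated cells. The change of scaling itself moved the median of all tested genes to -0.16 over the isotype antibody and -0.13 over untreated cells. Between isotype antibody and untreated cells the count over all genes was 2 by total-count scaling, 2 by edgeR on the deposited read counts, 0 by edgeR on exonic read equivalents, 13 by DESeq2, 0 by limma-voom and 0 with only those 6 libraries fitted. Leaving out 1 library in turn, this count, of both directions together, ranged from 0 to 2297. The lysosomal genes called lower ranged from 0 to 11. Both were highest without untreated 7, whose cause was not tested. Leaving out 1 library also moved the falls with PD-L1 antibody to 10 to 15 over the isotype antibody and 12 to 22 over untreated cells. Without untreated 7 these counts were 15 and 22. The share of all tested genes called lower rose there too, from 18.2% to 21.8% and from 20.5% to 23.8%. For the other runs without 1 library and for upper-quartile scaling that share is not given here. No called value changed sign. The calls made in every alternative were 13 of 18 over the isotype antibody and 14 of 19 over untreated cells. The calls of Atp6v0b, Atp6v1b2 and Atp6ap2 over untreated cells were lost with only 6 libraries fitted. No paired analysis was possible because the libraries' numbers (1 to 9) are not shared between groups. With 3 libraries a group, changes smaller than about the 95% intervals given could not be told from the spread between libraries.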

Other observations

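Of the 45 lysosomal genes, 29 were listed with 1 transcript and 16 with 2 or more. For 14 of these 16, the log2 ratio of PD-L1 antibody over isotype antibody differed by 0.1 or less between transcripts. It ran from -0.62 to -0.49 over the 4 transcripts of Gusb and from 1.55 to 1.67 over the 2 of Ctsc. The 3 transcripts of Lamp2, whose last exons differ, ran from 0.29 to 0.39. Since transcripts of a gene share reads, these are not separate measurements. In 42 of the 45 genes at least 90% of the exonic bases of the transcript used were covered in every library. The exceptions were Ctsc, with 61.5% in its lowest library, Man2b1 with 84.9% and Neu1 with 87.9%.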
